A study of Homo sapiens with 31 samples.

Results

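The inhibitors of apoptosis (IAPs) and their antagonists were followed as 8 of the 30667 genes of a UMI count table from NALM-6 cells, a B-cell precursor acute lymphoblastic leukemia line. They were chosen by name and not by their values: the inhibitors XIAP, BIRC2, BIRC3, BIRC5 and BIRC6, and the antagonists DIABLO, HTRA2 and XAF1. All 8 had a row in the table. The cells were transduced with a lentiviral construct. In it the red fluorescent protein dsRED and a microRNA-type short hairpin RNA (shRNA) were transcribed together from one promoter, either EF1a or SFFV. The shRNA was sh-XIAP, directed against XIAP, or sh-CTRL, directed against green fluorescent protein. The study names SFFV/sh-XIAP strong knockdown (KD) and EF1a/sh-XIAP moderate KD. The samples were taken 4, 10 and 13 days after transduction, and by the study's methods the cells of the later days were sorted. EF1a/sh-CTRL had 3, 3 and 3 samples at these days, EF1a/sh-XIAP 2, 2 and 3, SFFV/sh-CTRL 3, 2 and 2, and SFFV/sh-XIAP 2, 3 and 3, which makes 31 samples in 12 groups.

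All groups, the controls included, were thus exposed to a construct with dsRED and an shRNA, and no untransduced group was analysed here. The study's methods aimed at transducing a minority of cells and do not say whether the day 4 cells were sorted. Samples of day 4 may therefore hold untransduced cells, which limits the comparisons at day 4 and over all days. A single shRNA against XIAP was used, so that its effects on other transcripts and those on XIAP cannot be told apart. The sample labels describe cells followed in culture, while the series' design text speaks of cells recovered from the bone marrow of mice. Nothing in the labels says that the replicates were separate transductions, so p-values measure the spread between these samples only, which may be technical.

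The labels name the method prime-seq and the study's methods a bulk-adjusted form of SCRB-seq, a 3′ method in which every molecule is tagged with a unique molecular identifier (UMI) before amplification. One UMI stands for about 1 captured transcript whatever its length, so levels were compared between genes without division by length. Capture and mapping may differ between genes and were not assessed, so the order of genes is one of counts. Levels are given as counts per 1000000 UMIs of the sample (CPM). The samples held 312852 to 1153668 UMIs (median 603822), at which 1 CPM corresponds to about 1 UMI or less. The 9 B-cell precursor markers examined all had UMIs and summed to 4124 to 4768 CPM. The T cell, myeloid, erythroid and natural killer markers summed to at most 25.6 CPM for any one list in any one sample, and the T cell genes CD3E and CD3D had no row in the table.

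IAPs carry one or more BIR domains, folds that grip the exposed ends of activated caspases or other proteins. XIAP blocks caspases directly, whereas BIRC2 (cIAP1) and BIRC3 (cIAP2) are ubiquitin ligases of the TNF receptor and NF-kB pathways. BIRC5 (survivin) serves mainly in cell division, and BIRC6 is a giant ubiquitin-conjugating enzyme that can also mark caspases and antagonists for removal. DIABLO (SMAC) and HTRA2 are released from mitochondria during apoptosis and pull IAPs away from caspases, and XAF1 is an interferon-inducible partner of XIAP. When one IAP is removed, loss of its protein can in some cells be met by another, which is the question for which the other members were read beside the targeted gene. IAP proteins are also set by degradation, and no protein was measured here.

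The targeted gene was XIAP (ENSG00000101966, chrX:123859724-123913979, plus strand, in the GENCODE 29 annotation of GRCh38). It was counted with few UMIs, 2 to 14 per sample and 196 over the 31 samples. At days 10 and 13 it was at 4.50, 15.4, 8.55 and 12.4 CPM in the 4 SFFV/sh-CTRL samples, and the 6 SFFV/sh-XIAP samples ran from 6.35 through a median of 8.15 to 14.6 CPM. Every SFFV/sh-XIAP sample thus fell inside the range of its controls, which rests on few UMIs per sample. The groups differed in depth, with a median total of 464457 UMIs in SFFV/sh-CTRL and 708866 in SFFV/sh-XIAP at these days. With the EF1a promoter, XIAP was at 11.5, 9.52, 10.4, 9.05 and 7.63 CPM in the 5 EF1a/sh-XIAP samples, and the 6 EF1a/sh-CTRL samples ran from 3.81 through a median of 10.5 to 18.1 CPM. Here too the sh-XIAP samples lay within the spread of the controls.

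The pooled counts gave the width within which a change of XIAP could lie. SFFV/sh-XIAP had 39 UMIs of XIAP at days 10 and 13 against 19 in SFFV/sh-CTRL, a ratio of 0.823 per total UMI with an exact 95% interval of 0.464 to 1.51 (counting error only, as for all pooled intervals below). The difference in mean CPM was not significant (8.86 ± 3.06, SD, n = 6, against 10.2 ± 4.72, SD, n = 4; two-sided exact permutation p = 0.586). For EF1a/sh-XIAP the ratio was 0.811 with an interval of 0.475 to 1.36 (26 against 40 UMIs; exact permutation p = 0.619). Over all 3 days and both promoters, 96 UMIs in 15 sh-XIAP samples stood against 100 in 16 sh-CTRL samples, a ratio of 0.916 (0.685 to 1.22). No reduction of XIAP mRNA was therefore detected. At days 10 and 13, ratios below 0.464 with SFFV and below 0.475 with EF1a lie outside these intervals. Smaller reductions were not resolved at this depth. The study graded the KD as strong or moderate from protein, which was not measured here. In bulk RNA, less XIAP in every cell and none in some of the cells cannot be told apart. The close copy BIRC8, the XIAP pseudogenes and XIAP-AS1 have no row in the table, and no exon of another gene overlaps those of XIAP.

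At day 4, XIAP stood at 7.21, 7.27 and 7.55 CPM in SFFV/sh-CTRL and at 8.02 and 9.26 CPM in SFFV/sh-XIAP. The 2 groups did not overlap, with the sh-XIAP samples higher, but with 2 against 3 samples the exact permutation p was 0.10, the smallest this design can give, and the pooled ratio was 1.18 (0.522 to 2.61). In the EF1a pair the groups overlapped, at 7.12, 16.1 and 10.4 CPM with sh-CTRL and 12.7 and 9.19 CPM with sh-XIAP.

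**Figure D1:**
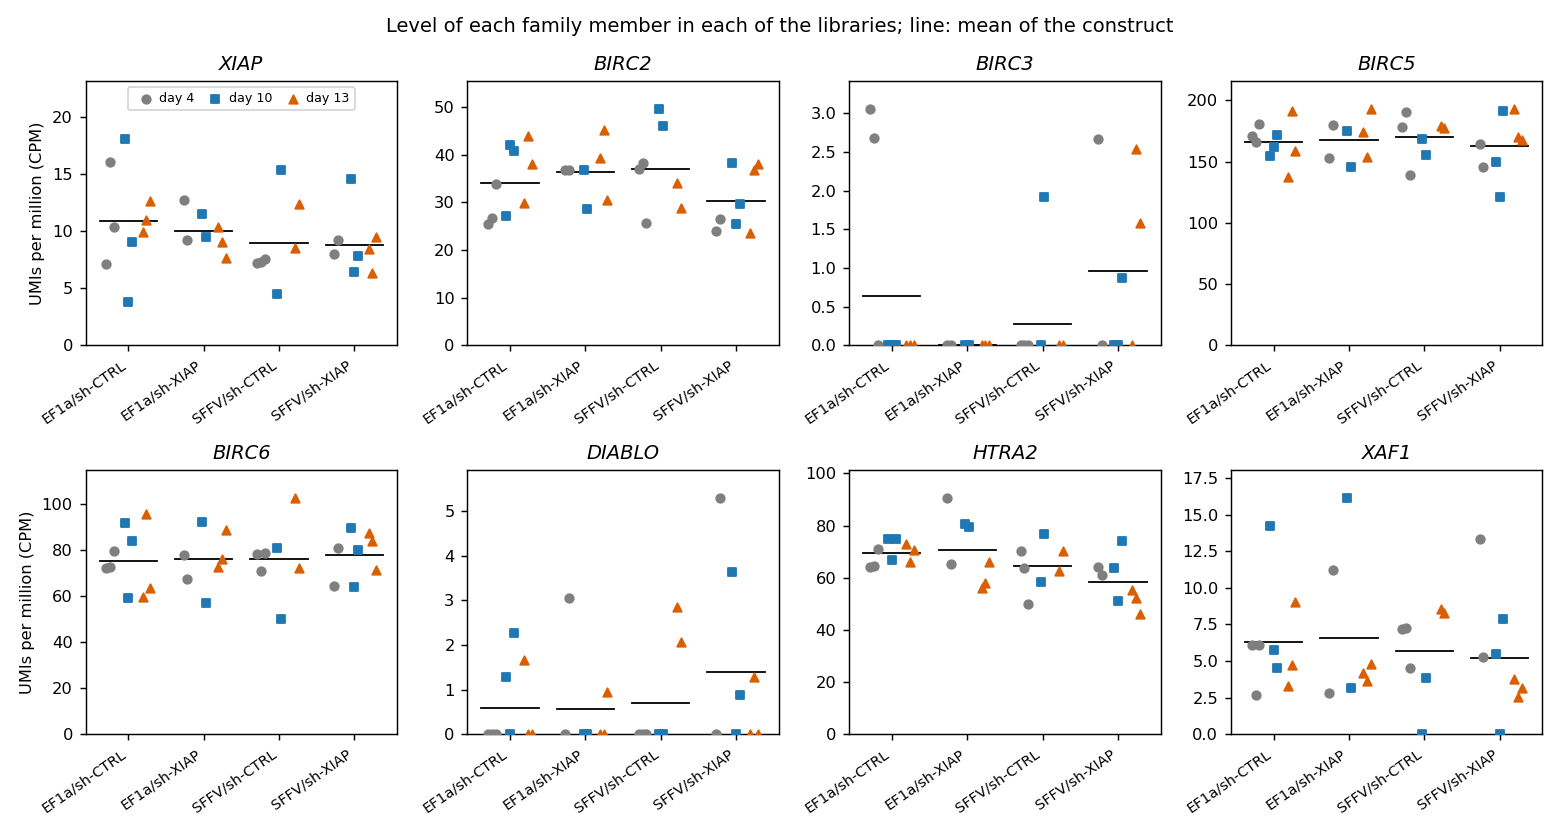
Level of each of the 8 genes in CPM (vertical axes, starting at 0, each panel on its own scale) in every sample, by construct and with the day as symbol; the black line is the mean of the construct over all days. For XIAP the 4 construct means lie between 8.80 and 10.9 CPM, within the spread of the single samples.

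The order of the members was stable across samples. BIRC5 was the highest of the 8 in 31 of 31 samples, at 167 ± 18.0 CPM (mean ± SD, n = 31; range 121 to 193), and ranked 979 among all genes of the table by pooled level. BIRC6 followed at 76.2 ± 12.2 CPM and HTRA2 at 65.8 ± 9.88 CPM, and these neighbours overlapped, BIRC6 being the higher in 24 of 31 samples. BIRC2, at 34.3 ± 7.17 CPM, was below HTRA2 in all 31 samples. XIAP came next at 9.72 ± 3.27 CPM, below BIRC2 in all 31 samples, and XAF1 at 5.91 ± 3.80 CPM. The last pair overlapped, with XIAP above XAF1 in 23 samples and equal to it in 4. BIRC3 was at the detection limit, with 11 UMIs in 7 samples. DIABLO was counted with 17 UMIs in 11 samples but cannot be placed in the order, because its last exon is shared with other identifiers, as described below. HTRA2 and XAF1 are placed by their counts, although genes on the opposite strand cover their last exons and the use of strand is not stated. For each UMI of XIAP there were 17.8 of BIRC5.

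Of the 5964 UMIs of the 5 inhibitors, BIRC5 took 58.4%, BIRC6 26.6%, BIRC2 11.6%, XIAP 3.29% and BIRC3 0.184% (samples pooled). XIAP's share was 3.45% in sh-CTRL and 3.14% in sh-XIAP samples, and it ranged from 1.43% to 6.19% over single samples. The summed level of the other 4 inhibitors was 279 ± 27.3 CPM (SD, n = 16) with sh-CTRL and 276 ± 28.3 CPM (SD, n = 15) with sh-XIAP. The difference lay well inside the spread between samples. BIRC5 and BIRC6 make up most of this sum, so a change of BIRC2 or BIRC3 could be hidden in it. Each member is therefore read singly below. Of the UMIs counted for the 3 antagonists, HTRA2 took 90.9% with sh-CTRL and 89.9% with sh-XIAP, which is a share of counts and not of transcripts, since the DIABLO count is uncertain.

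**Figure D2:**
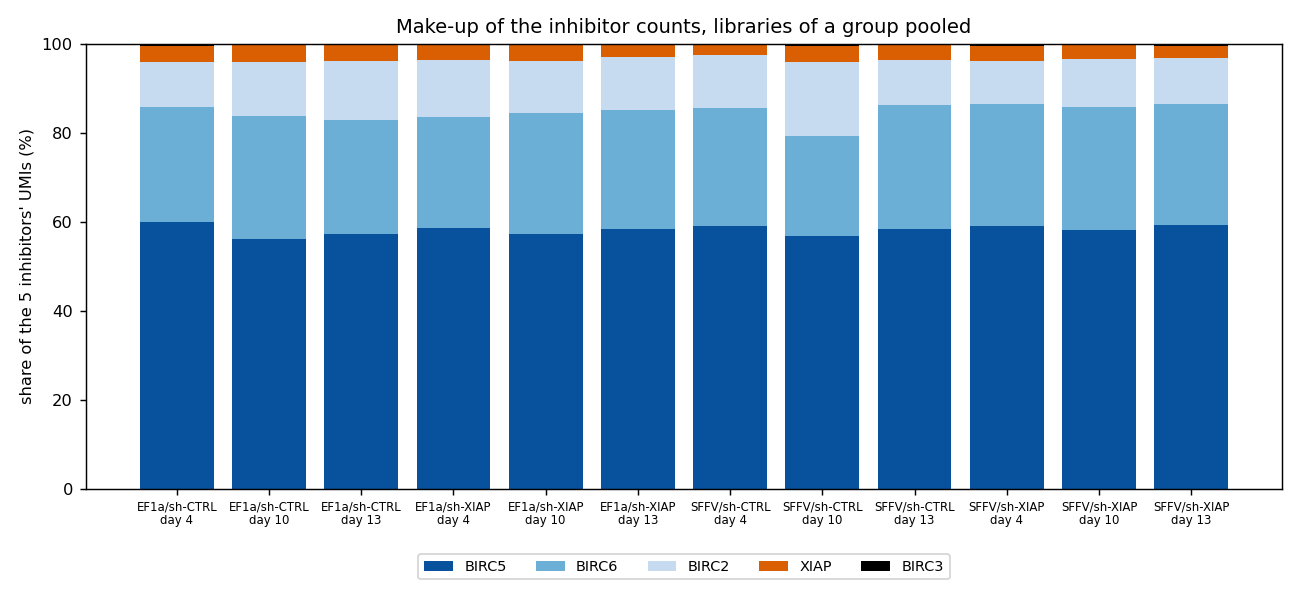
Share of each of the 5 inhibitors in their summed UMIs (vertical axis, percent), with the samples of each of the 12 groups of construct and day pooled. BIRC5 fills more than 50% of every bar and XIAP a thin band near the top; the bars carry no error and the groups hold 2 or 3 samples each.

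The spread between samples was close to what counting alone would give. Divided by the spread of Poisson counts at the same totals (a chi-square per degree of freedom, 1 for counting noise alone, over all 31 samples irrespective of group), it was 1.21 for BIRC5, 1.07 for BIRC6, 0.942 for BIRC2, 0.916 for HTRA2 and 0.670 for XIAP. For XAF1 it was 1.39, and for the few UMIs of DIABLO 1.48 and of BIRC3 1.29.

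BIRC2 and BIRC3 are neighbours on chromosome 11 and lie in the same direction, with 7807 bases between the end of BIRC3 (chr11:102317450-102339403) and the start of BIRC2 (chr11:102347211-102378670). BIRC2 was nevertheless read at 690 UMIs and BIRC3 at 11. BIRC3 is a classical target of NF-kB, and its promoter is shown beside that of BIRC2 because the 2 genes encode closely related proteins and differ this much in level. The windows reach from 250 bases before to 50 bases after the annotated start and come from RefSeq (GRCh38.p14, plus strand), in which 7 of the 8 genes had an entry. Capitals mark matches to the kappa-B motif, the sequence bound by NF-kB, which was searched on both strands.
BIRC2 chr11:102346964-102347263: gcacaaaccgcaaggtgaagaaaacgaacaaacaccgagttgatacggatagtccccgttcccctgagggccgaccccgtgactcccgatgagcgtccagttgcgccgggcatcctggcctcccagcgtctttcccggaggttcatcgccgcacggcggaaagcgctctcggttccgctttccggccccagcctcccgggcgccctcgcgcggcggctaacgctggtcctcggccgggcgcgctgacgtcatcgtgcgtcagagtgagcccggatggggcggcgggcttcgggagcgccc
BIRC3 chr11:102317234-102317533: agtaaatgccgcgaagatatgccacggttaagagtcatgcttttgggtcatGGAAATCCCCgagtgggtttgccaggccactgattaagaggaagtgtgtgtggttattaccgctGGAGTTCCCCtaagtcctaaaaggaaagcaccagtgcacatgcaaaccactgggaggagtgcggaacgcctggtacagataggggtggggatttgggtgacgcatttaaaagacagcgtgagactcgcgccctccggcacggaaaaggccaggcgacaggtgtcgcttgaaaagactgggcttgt
The BIRC3 window held 2 matches, which do not overlap, and the BIRC2 window none, nor did a second BIRC2 window with 44 CG pairs. BIRC6, HTRA2 and XAF1 each had 1 match in 1 of their 2 windows, and the windows of XIAP and DIABLO had none. A match was present in 14.0% of the 35116 promoter windows of the same length, so that it is no rare feature. The BIRC2 window was richer in CG pairs, with 40 against 15 in BIRC3 and a median of 14 over all windows, and its share of G and C was 68.7% against 53.3%. Whether either feature bears on the levels was not tested.

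BIRC3 was found in 7 samples only, with 1 to 3 UMIs each. Among EF1a/sh-CTRL samples 2 of day 4 held 3 and 1 UMIs, and in SFFV/sh-CTRL 1 sample of day 10 held 1. SFFV/sh-XIAP held 2 UMIs in 1 sample of day 4, 1 in 1 sample of day 10, and 2 and 1 in 2 samples of day 13. EF1a/sh-XIAP had none among 4518738 UMIs, which allows up to 0.664 CPM by a floor of 3 counts and up to 0.816 CPM by the exact 95% interval. The pooled level was 0.571 CPM with sh-XIAP and 0.499 CPM with sh-CTRL, a ratio of 1.14 whose interval ran from 0.291 to 4.74. BIRC3 did not pass the filter on low counts. Fitted without the filter it was not called in any of the 10 comparisons, with a smallest limma-voom adjusted p of 0.790. The unfiltered fit is a weak guide, since it called 8868 of 29756 genes for day 10 against day 4. With the filter, 46 of 17676 genes were called there.

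BIRC2 showed the largest fitted difference in the strong KD comparison among the 4 inhibitors tested, and it was downward and not significant. At day 10 it was at 49.5 and 46.1 CPM in SFFV/sh-CTRL and at 38.3, 25.6 and 29.6 CPM in SFFV/sh-XIAP, and at day 13 at 34.2 and 28.9 CPM against 23.5, 36.8 and 38.1 CPM. The groups were apart at day 10, with sh-XIAP lower, and overlapped at day 13. The gap at day 10 rests on 2 against 3 samples, where an exact permutation p cannot fall below 0.10. The share of all genes that separate in this way was not counted, so the gap is a description only. Over both days the log2 fold change was −0.37 (95% interval −0.80 to 0.07; limma-voom adjusted p = 0.920) and the pooled ratio 0.785 (0.587 to 1.06). The difference in means was −7.70 CPM, from a control mean of 39.7 CPM (exact permutation p = 0.181), and after the counts had been thinned once to the smallest sample total it was −13.6 CPM (exact permutation p = 0.0286). The thinned value is 1 random draw with fewer counts, and its p is unadjusted. In the EF1a pair BIRC2 was at 36.1 ± 6.76 CPM (SD, n = 5) with sh-XIAP and 36.9 ± 6.88 CPM (SD, n = 6) with sh-CTRL. At day 4 the means differed in opposite directions in the 2 promoters: with EF1a, both sh-XIAP samples (36.8 and 36.7 CPM) were above the controls (25.4, 26.8 and 33.8 CPM), and with SFFV the sh-XIAP samples (24.1 and 26.5 CPM) were below 2 of the controls (37.1 and 38.2 CPM) and on either side of the third (25.7 CPM). Neither was significant (adjusted p = 0.976 and 0.979 by limma-voom, exact permutation p = 0.20 and 0.30), and a test of the difference between promoters at day 4 was not made.

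BIRC5 (chr17:78214186-78225636) was the most precisely measured member, with 38 to 220 UMIs per sample. In SFFV/sh-XIAP at days 10 and 13 it ran from 121 through a median of 169 to 193 CPM, around the 156 to 179 CPM of SFFV/sh-CTRL. With sh-XIAP over all days its log2 fold change was 0.0094 (95% interval −0.10 to 0.12). A change of BIRC5 by more than about 1.09-fold up lies outside that interval. BIRC6 (chr2:32357028-32618899) was at 76.8 ± 10.6 CPM (SD, n = 15) with sh-XIAP and 75.7 ± 13.9 CPM (SD, n = 16) with sh-CTRL, and its log2 fold change was 0.041 (−0.12 to 0.20).

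HTRA2 (chr2:74529377-74533348) had the most UMIs of the antagonists, 1353, although DIABLO's true level is not known, as described below. At days 10 and 13 the 6 SFFV/sh-XIAP samples ran from 46.0 through a median of 53.8 to 74.0 CPM, and the SFFV/sh-CTRL samples stood at 58.5, 76.9, 70.1 and 62.7 CPM. The groups overlapped, with a difference in means of −9.98 CPM (exact permutation p = 0.143), and the log2 fold change was −0.20 (−0.50 to 0.093; adjusted p = 0.937 by limma-voom). With counts thinned once to the smallest total the difference was −16.8 CPM (exact permutation p = 0.0143). This is 1 random draw with fewer counts, its p is unadjusted, and with all counts the difference was not significant. In the EF1a pair the log2 fold change was −0.045 (−0.32 to 0.23).

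XAF1 (chr17:6755447-6775647) had a UMI in 29 of 31 samples and 127 in all. At days 10 and 13 it was at 14.2, 5.72, 4.53, 3.31, 4.70 and 9.04 CPM with EF1a/sh-CTRL and at 16.1, 3.17, 4.15, 3.62 and 4.77 CPM with EF1a/sh-XIAP. A sample of day 10 was the highest in each group, and that of EF1a/sh-XIAP stood apart from the other 4. Its log2 fold change with sh-XIAP over all days was −0.015 with a wide interval of −0.56 to 0.53.

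DIABLO (ENSG00000184047, chr12:122207663-122226568, minus strand) had only 17 UMIs, but its level cannot be read from them. All 915 bases of its last exon, where 3′ reads fall, are shared on the same strand with a second DIABLO identifier and with AC048338.1, neither of which has a row in the table. The sources used here do not say how reads in such shared exons were counted. The sh-XIAP samples held 12 UMIs and the sh-CTRL samples 5, a ratio of 2.29 whose interval of 0.751 to 8.29 includes 1. The last exon of DIABLO also lies whole within B3GNT4 on the opposite strand, as those of HTRA2 and XAF1 do within LOXL3 and PRAL, and it is not stated whether the counting used strand. The exons of XIAP, BIRC2, BIRC3 and BIRC5 overlap no other annotated gene, and those of BIRC6 share 49 bases with BIRC6-AS1 on the opposite strand.

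In the fit over all genes no member was called. With strong KD at days 10 and 13, 0 of the 7 members tested passed an adjusted p of 0.25 by limma-voom, the threshold the study used, while 0.0792% of the 17683 genes tested were called. With moderate KD it was 0 of 7, against 0.0170% of genes, and for the difference between strong and moderate KD 0 of 7, against 0.00566%. At day 4 it was 0 of 6 members for both, with 0.0109% of genes called for strong and 0.0491% for moderate KD. With sh-XIAP against sh-CTRL over all days it was 0 of 6, against 0.113% of genes. In these 6 comparisons no member had an unadjusted p under 0.05 either, and the edgeR quasi-likelihood test and DESeq2 called none. With calls this rare among all genes, a count of 0 among 6 or 7 members is what the background rate gives and is no result about the members.

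Over all days, the upper limits of the 95% intervals of the log2 fold change with sh-XIAP were each below a doubling. They were 0.33 for XIAP, 0.10 for BIRC2, 0.12 for BIRC5, 0.20 for BIRC6, 0.12 for HTRA2 and 0.53 for XAF1. For XIAP, the targeted gene, the lower limit was −0.42, a fold of 0.748, and a larger mean loss lies outside that interval. The earliest samples in this fit may hold untransduced cells, so the limit applies to the samples and not to transduced cells alone. The fitted difference between strong and moderate KD was −0.094 for XIAP (−1.18 to 0.996) and −0.37 for BIRC2 (−0.97 to 0.23), both with 0 inside the interval.

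**Figure D3:**
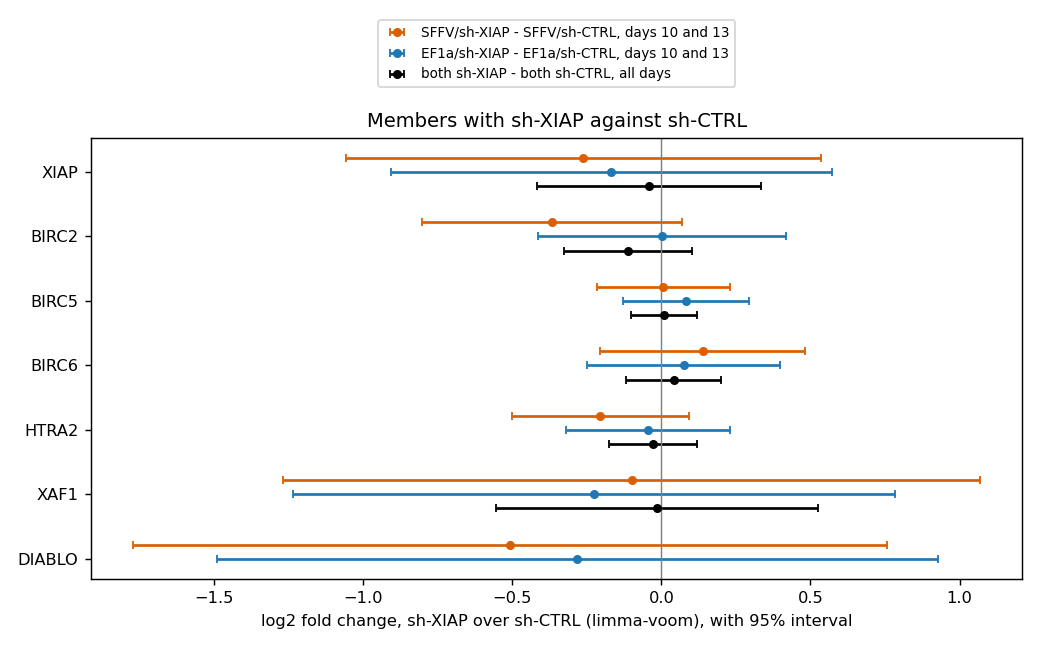
Log2 fold change of each member tested, sh-XIAP over sh-CTRL (horizontal axis, with its 95% interval), for strong KD (orange) and moderate KD (blue) at days 10 and 13 and for both promoters and all days together (black). Every interval includes 0; the narrowest is that of BIRC5 (−0.10 to 0.12) and the widest those of DIABLO and XAF1, and BIRC3 and, over all days, DIABLO did not pass the filter.

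The promoter and the day were compared on the same members, since all constructs carried one of 2 promoters. SFFV against EF1a over all days called 0 of 6 members, against 0.255% of genes, but HTRA2 stood out by its unadjusted p. It was at 61.3 ± 9.17 CPM (SD, n = 15) with SFFV and 70.0 ± 8.78 CPM (SD, n = 16) with EF1a, a pooled ratio of 0.887 (0.796 to 0.989). The permutation p over 100000 resamples was 0.0104, and limma-voom gave a log2 fold change of −0.18 (−0.33 to −0.035) with p = 0.0160 before and 0.676 after adjustment over all genes, so it failed the correction. Of the genes tested, 6.60% had an unadjusted p under 0.05 in this comparison. The mean was lower with SFFV at each day: 61.7 against 71.1 CPM at day 4, 64.9 against 75.3 CPM at day 10 and 57.3 against 64.8 CPM at day 13 (exact permutation p = 0.135, 0.0794 and 0.149). The difference was larger among sh-XIAP than among sh-CTRL samples. At days 10 and 13 the SFFV and EF1a means were 57.1 and 67.9 CPM with sh-XIAP, and 67.1 and 70.9 CPM with sh-CTRL. At day 4 they were 62.5 and 77.9 CPM with sh-XIAP, and 61.2 and 66.5 CPM with sh-CTRL. Whether the promoter difference depends on the shRNA was not tested. LOXL3, which covers the last exon of HTRA2 on the other strand, was at 35.6 ± 7.05 CPM (SD) with SFFV and 38.5 ± 6.38 CPM with EF1a, a log2 fold change of −0.18 with a limma-voom adjusted p of 0.772. AUP1, which also shares exonic bases with HTRA2 on the other strand, went the other way. It was at 144 ± 15.3 CPM (SD) with SFFV and 138 ± 12.3 CPM with EF1a, a log2 fold change of 0.084 with a limma-voom adjusted p of 0.796. The part of LOXL3 or AUP1 in the HTRA2 counts was not tested.

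**Figure D4:**
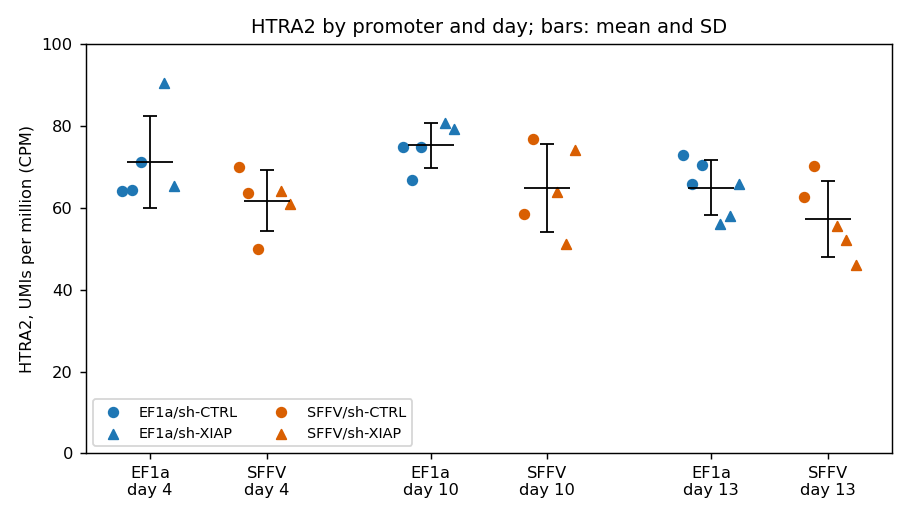
HTRA2 in CPM (vertical axis, starting at 0) in each sample, by promoter and day; circles are sh-CTRL and triangles sh-XIAP, and the black bars give the mean and SD of the 5 or 6 samples of a promoter at a day. The SFFV mean is below the EF1a mean at each of the 3 days, and the samples overlap at each.

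Among the days, HTRA2 was lower at day 13 (61.4 ± 8.57 CPM, SD, n = 11) than at day 10 (70.1 ± 9.70 CPM, SD, n = 10), with a log2 fold change of −0.21, an unadjusted p of 0.0209 and an adjusted p of 0.760 by limma-voom (permutation p = 0.0443). At day 4 it was at 66.4 ± 10.3 CPM (SD, n = 10), between them. BIRC5 went from 167 ± 16.8 CPM at day 4 through 160 ± 19.1 CPM at day 10 to 172 ± 17.4 CPM at day 13, and XIAP from 9.48 ± 2.92 through 10.1 ± 4.77 to 9.62 ± 1.92 CPM, all within the spread between samples. None of the 6 members tested was called for day 10 against day 4, day 13 against day 4 or day 13 against day 10, where 0.260%, 0.509% and 0.0226% of genes were.

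The other genes of these pathways were taken from fixed lists of 42 genes: caspases bound by XIAP, the apoptosome, partners of BIRC2, BIRC5 and BIRC6, further IAP family genes, NF-kB targets, interferon-stimulated genes and mitosis genes. None was called in any of the 10 comparisons. With sh-XIAP over all days 39 were tested, 24 with a positive and 15 with a negative log2 fold change, and their median of 0.010 stood beside 0.0044 over all genes. The smallest p was that of AREL1, a ubiquitin ligase that acts on IAP antagonists (log2 fold change −0.28, unadjusted p = 0.0357, adjusted p = 0.730 by limma-voom).

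The values that follow are pooled CPM and log2 fold changes with sh-XIAP over all days. CASP9, the initiator caspase of the apoptosome, was at 9.20 CPM with −0.051 (limma-voom unadjusted p = 0.823). CYCS, cytochrome c, at 199 CPM, had a log2 fold change of 0.010 (limma-voom adjusted p = 0.986). In the apoptosome it is joined by APAF1, whose value was 0.20 (unadjusted p = 0.0894). Among genes around the cIAPs TRAF2, the adaptor that recruits them, was at 31.8 CPM with 0.055 (unadjusted p = 0.606). TNFAIP3 (A20), an NF-kB target that restrains the pathway, was at 143 CPM with −0.11 (unadjusted p = 0.0778).

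BIRC5 works in the chromosomal passenger complex, in which CDCA8 (borealin) was at 127 CPM with a log2 fold change of 0.025 and AURKB, its kinase, at 61.5 CPM with −0.046 (limma-voom unadjusted p = 0.712 and 0.605). Of the mitosis genes TOP2A, a topoisomerase, was the most abundant at 317 CPM (0.056) and CCNB1, cyclin B1, had the smallest p (0.12, unadjusted p = 0.0550). UBA6, the ubiquitin-activating enzyme that works with BIRC6, was at 61.2 CPM with 0.010. Of the interferon-stimulated genes IFI6 had the smallest p (0.14, unadjusted p = 0.347). GSPT1, whose processed form binds IAPs, was at 101 CPM with −0.032. MAP3K7 (TAK1), the kinase reached by XIAP through TAB1, was at 53.3 CPM with −0.030. The further IAP family gene NAIP was at 3.12 CPM with 0.23 (limma-voom unadjusted p = 0.506), but at days 10 and 13 its values were opposite, 1.26 in strong KD (unadjusted p = 0.0577, adjusted 0.897) and −1.24 in moderate KD (unadjusted p = 0.0463, adjusted 0.992). The difference between strong and moderate KD was 2.50 (unadjusted p = 0.00739, adjusted 0.964) and failed the correction. NAIP rests on 64 UMIs over all samples and has near-identical partial copies in the genome, so that its count is uncertain. BIRC7 and BIRC8 have no row in the table.

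For the 4 members with a median of at least 20 UMIs per sample, the genes most like them were sought by Pearson's r of log2 CPM over the 31 samples, among 5942 genes. For BIRC5 these were ZNF330 (r = 0.63), CENPW, a centromere protein (0.62), ATL2 (0.61), MPC1 (0.58) and USP20 (0.58). For BIRC6 they were NSMCE1 (0.68), CERS6-AS1 (0.66), EDF1 (0.64), LRRC28 (0.61) and PARK7 (0.60). PSPC1 (0.58), MSMO1 (0.58), RPSA (0.54), SEC63 (0.51) and CASP8AP2 (0.50) came closest to BIRC2. TERF2 (0.60), ITPRID2 (0.56), DGKD (0.53), RETREG3 (0.53) and MBD1 (0.52) came closest to HTRA2. These are the highest of 5942 values each and are descriptions. The samples differ in depth, construct and day, and the correlations were not adjusted for construct or day. Among the members themselves the highest correlation was that of BIRC5 with BIRC6 (r = 0.43, Spearman's rho = 0.39), and BIRC2 with BIRC6 had r = −0.025.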

How the data were processed

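NALM-6 libraries were prepared by prime-seq per the labels. The file deposited by the authors holds raw UMI counts, as whole numbers for each Ensembl gene in each sample. Per the labels' processing notes, STAR 2.6.0a was used, and the builds hg38 (GRCh38) and mm10 (GRCm38) are named there without a role. Counting tool, annotation and use of strand: not given in the sources used here. UMI totals per sample (312852 to 1153668) set the precision. Of the identifiers, 30548 were paired with a symbol.

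Samples were grouped by construct and day from their labels, and none was left out. The study's methods mention samples excluded as outliers without naming them, and whether the deposited set is already without them is not stated. Some groups hold 2 samples where others hold 3, and SFFV/sh-XIAP at day 4 has replicates 1 and 3 only. The set may thus already be trimmed, in which case the spread between samples is that of a trimmed set. Counts were scaled by TMM and tested with limma-voom (construct and day as terms) on genes above 1 CPM in at least 1/3 of the samples of a fit, with Benjamini-Hochberg adjustment and calls at an adjusted p of at most 0.25. In all, 3 fits were made: 21 samples of days 10 and 13, 10 of day 4 and all 31. Mean CPM was compared by two-sided permutation tests of the absolute difference, exact below 10 samples a group. Pooled ratios carry exact conditional binomial intervals. Log2 CPM for correlations used a prior count of 2. Tried beside these were edgeR's quasi-likelihood test, DESeq2, DESeq2 size factors, no filter, a replicate block, single days, other controls, thinned counts and each sample left out. Versions were R 4.3.3, edgeR 4.0.16, limma 3.58.1, DESeq2 1.42.0 and SciPy 1.17.1. The fits were tested on simulated data.

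The named genes were all 8 members, the genes of the pathway lists that were called or else the most abundant and the one with the smallest p of each list, and the 5 genes most like each member. CASP9 was added after its values were seen, and a few genes that this rule names are not reported here. The members and lists were chosen with earlier results of these data known.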

Additional observations from a re-analysis of the deposited data

Results flagged for a closer look

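In 4 of 30 groups examined (a member in a construct at days 10 and 13, with 4 to 6 samples), 1 sample stood further from the others than Dixon's 95% limit allows, where chance flags about 1 group in 20 for continuous values. That rate does not apply to counts of 0 to 2 UMIs, so the number of such groups says nothing by itself. XAF1 in EF1a/sh-XIAP was at 16.1 CPM in replicate 1 of day 10 (7 UMIs) and at 3.17 to 4.77 CPM in the other 4 samples, a gap of 0.877 of the whole range. DIABLO in SFFV/sh-XIAP was at 3.65 CPM in replicate 1 of day 10 (2 UMIs) and at 0 to 1.27 CPM in the others, a gap of 0.651 of the range. DIABLO in EF1a/sh-XIAP and BIRC3 in SFFV/sh-CTRL each had 1 UMI in 1 sample and 0 in the rest, which makes the ratio 1 by construction.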

How the results depend on the processing

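The count of members called stayed at 0 in all 10 comparisons with the edgeR quasi-likelihood test, DESeq2, its size factors, no low-count filter, the replicate block and every sample left out in turn. It was also 0 in the comparisons for which other sample sets were tried: strong and moderate KD at each day alone, strong KD against both sh-CTRL constructs, and sh-XIAP at days 10 and 13 only. Over all genes the calls ranged from 0 to 76 with edgeR, 0 to 75 with DESeq2 and 1 to 8868 without the filter. The 8868 calls were for day 10 against day 4, among 29756 genes, where the filtered fit called 46 of 17676. Adjusted p-values without the filter are therefore a weak guide. The shares of the members moved by less than their spread when averaged over samples. Low counts are one limit: XIAP, XAF1, DIABLO and BIRC3 had few UMIs. The cause of the sign changes below was not tested.

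The replicate numbers were not taken as pairs, because the study's methods name no pairing. Residuals of samples that share a replicate number had a mean correlation of −0.00065 (149 pairs), and those of samples with unequal numbers one of 0.00041 (290 pairs). The replicate block left 0 members called in all comparisons. With the block, log2 fold changes changed sign for BIRC2 in moderate KD (−0.013), BIRC5 in strong KD (−0.052), BIRC6 at day 10 against day 4 (0.027) and in moderate KD at day 4 (0.0396), and HTRA2 in strong KD at day 4 (−0.019).

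Sign changes with DESeq2 were those of BIRC2 in moderate KD (−0.00306), BIRC5 in strong KD (−0.027) and with sh-XIAP over all days (−0.010), BIRC6 at day 10 against day 4 (0.035), XAF1 with sh-XIAP over all days (0.041), and, for strong minus moderate KD, DIABLO (0.31) and XAF1 (−0.16). The edgeR test gave −0.00873 for BIRC2 in moderate KD, 0.013 for BIRC6 at day 10 against day 4, 0.085 for XAF1 over all days, and 0.61 for DIABLO and −0.0028 for XAF1 in strong minus moderate KD. DESeq2 size factors gave −0.011 for BIRC5 in strong KD, −0.000310 for BIRC5 over all days and 0.022 for BIRC6 at day 10 against day 4. Without the filter BIRC2 in moderate KD was −0.0064 and BIRC6 at day 10 against day 4 was 0.00185. With day 10 alone, moderate KD gave −0.035 for BIRC2, −0.0536 for BIRC6, 0.16 for HTRA2, 0.11 for XAF1 and 0.18 for XIAP, and strong KD gave 1.18 for XAF1. With day 13 alone, BIRC2 in moderate KD was −0.046 and BIRC6 in strong KD −0.040.

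Counts thinned once to the smallest total (312852 UMIs) moved differences in mean CPM for strong KD to −13.6 for BIRC2 and −16.8 for HTRA2, both then past an exact permutation p of 0.05, and to −0.799 for BIRC3, 3.46 for BIRC5, 0 for DIABLO and 0 for XAF1. HTRA2 in moderate KD moved to 0. These values rest on 1 random draw, and the p-values are unadjusted for the 15 differences examined, so they do not establish a change.

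With each sample left out, the log2 fold changes that changed sign spanned these ranges. In strong KD at days 10 and 13 they were −0.041 to 0.070 for BIRC5, −0.029 to 0.31 for BIRC6 and −0.72 to 0.36 for XAF1. In moderate KD they were −0.13 to 0.11 for BIRC2 and −0.018 to 0.16 for BIRC6. In strong minus moderate KD they were −0.12 to 0.031 for BIRC5, −0.11 to 0.23 for BIRC6, −0.59 to 0.13 for DIABLO, −0.54 to 0.56 for XAF1 and −0.43 to 0.18 for XIAP. At day 4 strong KD ranged over −0.25 to 0.071 for BIRC6, −0.11 to 0.15 for HTRA2 and −0.24 to 1.01 for XAF1, and moderate KD over −0.17 to 0.058 for BIRC5, −0.15 to 0.067 for BIRC6, −0.024 to 0.45 for HTRA2, −0.74 to 0.99 for XAF1 and −0.10 to 0.42 for XIAP. With sh-XIAP over all days the ranges were −0.022 to 0.029 for BIRC5, −0.012 to 0.066 for BIRC6, −0.19 to 0.14 for XAF1 and −0.12 to 0.015 for XIAP. For the promoters they were −0.022 to 0.030 for BIRC5 and −0.0078 to 0.057 for BIRC6. For day 10 against day 4 they were −0.053 to 0.085 for BIRC6, −0.44 to 0.074 for XAF1 and −0.023 to 0.29 for XIAP, for day 13 against day 4 −0.020 to 0.13 for XIAP, and for day 13 against day 10 −0.13 to 0.010 for BIRC2, −0.39 to 0.034 for XAF1 and −0.21 to 0.072 for XIAP. XIAP stayed negative in strong KD at days 10 and 13 with every sample left out, from −0.56 to −0.013. In strong KD at day 4 it stayed positive, from 0.12 to 0.30. Neither difference was significant with all samples (limma-voom unadjusted p = 0.511 and 0.689). HTRA2 stayed lower with SFFV over all days, from −0.20 to −0.14.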
